A study of Mus musculus with 6 samples.

Results

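The Wnt ligands, receptors and pathway genes comprise 57 of the 24028 genes in the deposited count table, chosen by symbol alone: the Wnt, Fzd, Sfrp, Dkk, Rspo and Dvl families, with Lrp5, Lrp6, Axin1, Axin2, Ctnnb1, Tcf7, Tcf7l1, Tcf7l2, Lef1, Apc, Gsk3b, Znrf3 and Rnf43. They were measured by polyadenylated RNA sequencing in C2C12 cells, an immortalised mouse myoblast line. Each of the 6 cultures came from 1 clonal line, labelled MMH6_codon-altered and grown under puromycin, which carries a doxycycline-inducible chimera of mouse Dux (amino terminus with the homeodomains) and human DUX4 (the remainder), both with altered codons. The uninduced group had 3 cultures without doxycycline and the induced group 3 cultures with 2 µg/ml doxycycline; the duration is stated as 18 h in the series text and as 36 h in the sample protocol, so it is uncertain. Cultures with doxycycline and no transgene were not analysed here, so drug and transgene cannot be told apart, and in bulk RNA neither can fewer cells with a transcript and less transcript per cell.

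Wnt proteins are lipid-modified secreted ligands that bind Frizzled receptors together with the co-receptors LRP5 and LRP6. In the canonical branch the receptor complex recruits Dishevelled and Axin, the destruction complex of Axin, APC and GSK3 no longer marks beta-catenin for degradation, and beta-catenin enters the nucleus to act with TCF/LEF factors. Secreted SFRP and DKK proteins dampen the signal, R-spondins strengthen it by holding off the ligases ZNRF3 and RNF43, and in the muscle lineage Wnt signals are known to take part in the specification of myoblasts and in their differentiation.

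Of the 57 genes, 36 had enough counts to be tested, and 31 of these passed an adjusted p of 0.05 (edgeR), 18 higher and 13 lower in induced cells. The background was high, since 82.5% of all 12969 tested genes were called, 41.3% higher and 41.2% lower, so these counts are close to those of genes at large. The median log2 fold change of the 36 was 0.17, against -0.01 over all tested genes. The groups did not overlap in CPM (counts scaled to a common library size) for 31 of the 36, against 83.1% of all tested genes. The families were mixed in direction: 6 of 9 tested Frizzled receptors rose and 2 fell, 4 of 7 ligands fell and 2 rose, and 3 of 4 TCF/LEF factors fell.

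Libraries held 21.5 to 24.5 M counts. The trimmed mean of M values (TMM), which takes the middle of all genes as the reference, gave scaling factors averaging 1.40 in uninduced and 0.716 in induced libraries. When libraries were scaled by their totals alone, that median was -0.97, so a direction given here depends on the reference. Under TMM, RLE, upper-quartile and library-size scaling alike, 7 members were called higher (Wnt11, Sfrp4, Fzd4, Fzd5, Fzd8, Lrp6 and Axin2) and all 13 lower members were called lower. For the lower members this agreement was largely fixed in advance, because no scaling used moved values up by much. With library size alone, 1977 of all 12969 tested genes were called higher and 9949 lower. How many of all tested genes kept their call under all 4 scalings was not counted, so the 7 cannot be set against that share. The median over all tested genes was -0.97 with library-size, -0.16 with upper-quartile and 0.0072 with RLE scaling. CPM values here are on the TMM scale. Counts at the Dux row were 0 to 3 in uninduced and 216 to 252 in induced libraries, although the altered codons mean that this row need not measure the transgene. Myod1, the myoblast transcription factor, was present in every library but fell (175 to 183 CPM without and 36.3 to 38.1 CPM with doxycycline), and the 10 myoblast markers summed to 2222 to 2238 CPM without and 1537 to 1572 CPM with doxycycline, with 5 lower and 3 higher of 9 tested. Pax7, a satellite cell factor, had too few counts to test. Summed markers of other cell types ranged from 55.8 to 57.9 and from 37.0 to 39.9 CPM for osteoblasts (3 of 3 tested lower) and from 98.0 to 106 and from 205 to 206 CPM for adipocytes (2 higher and 2 lower of 4), in uninduced and induced libraries respectively. For neurons they ranged from 76.7 to 82.9 and from 115 to 122 CPM (2 higher, 1 lower of 3), and for endothelial cells from 0.259 to 0.852 and from 2.28 to 2.59 CPM (2 higher of 2). Epithelial (4.36 to 5.60 CPM) and leukocyte (0.927 to 1.78 CPM) sums were low in all libraries, with 0 called of 2 and of 1 tested by edgeR, and 0 of these at an unadjusted p of 0.05. Within the adipocyte list Fabp4 (0.466 ± 0.102 to 7.05 ± 0.790 CPM) and Cebpa (47.1 ± 1.32 to 159.8 ± 1.75 CPM) rose and Pparg and Lpl fell, while Adipoq and Plin1 were at 0 in the uninduced libraries and at most 0.287 and 0.0574 CPM in the induced ones. Of the neuronal genes Syt1 rose (0.451 ± 0.223 to 5.71 ± 0.490 CPM), Map2 fell, Tubb3 was called higher with TMM scaling (58.8 ± 2.36 and 98.9 ± 4.62 CPM), and Snap25 had counts in 1 induced library. The part of these markers in the results was not tested.

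**Figure D1:**
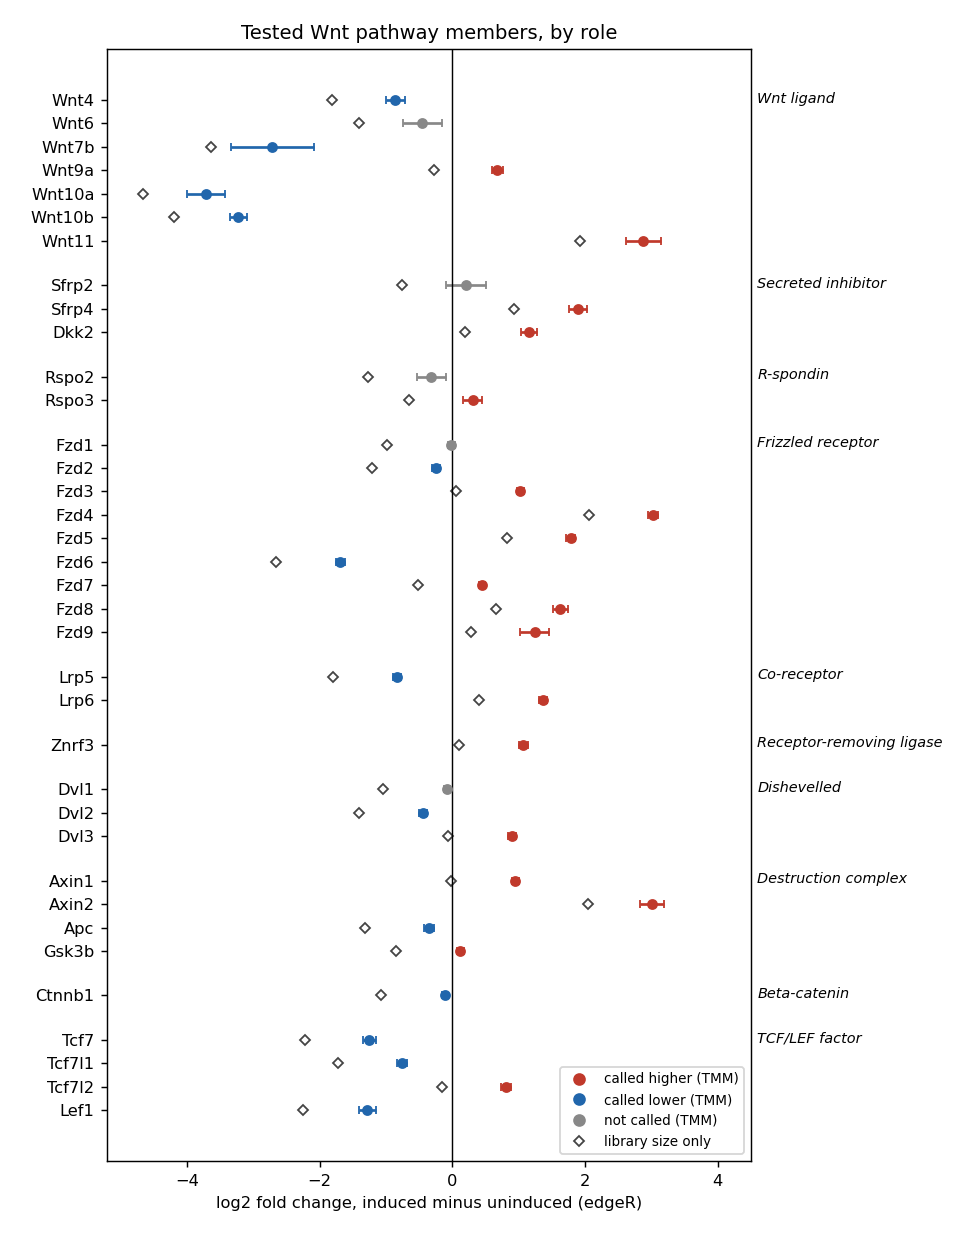
Log2 fold change (x axis, induced minus uninduced, edgeR) of the 36 tested members (y axis, by role). Filled points with bars are TMM-scaled values ± SE, coloured by call at an adjusted p of 0.05, and open diamonds are the values when totals alone set the scaling; the ligands Wnt10a (-3.71) and Wnt10b (-3.23) lie farthest left and Fzd4 (3.03) and Axin2 (3.01) farthest right, and the diamonds lie about 0.97 to the left of the points.

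Promoter windows were looked up for 8 members, the 4 with the largest called rises and the 4 with the largest called falls among those with a mean of 1 CPM or more in either group, which leaves out the sparsely counted Wnt7b. RefSeq windows (GRCm38.p6, from 250 bases before to 50 after a transcription start) were read for Fzd4, Axin2, Wnt11, Wnt10b and Lef1; Sfrp4, Wnt10a and Fzd6 are named only. Letters in capitals mark a match to a TCF/LEF element (CTTTG and then a pair of letters that are each A or T), searched on both strands. Sequences are 5′ to 3′ on the gene's strand, and for genes with several windows the most upstream is shown.
Wnt10b, chr15:98778101-98778400, minus strand: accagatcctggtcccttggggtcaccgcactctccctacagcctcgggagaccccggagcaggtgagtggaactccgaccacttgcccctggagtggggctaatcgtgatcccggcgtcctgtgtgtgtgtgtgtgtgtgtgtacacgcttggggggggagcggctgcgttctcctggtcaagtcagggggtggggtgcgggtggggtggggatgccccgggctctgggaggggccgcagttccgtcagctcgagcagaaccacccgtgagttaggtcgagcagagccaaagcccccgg
Wnt11, chr7:98834862-98835161, plus strand: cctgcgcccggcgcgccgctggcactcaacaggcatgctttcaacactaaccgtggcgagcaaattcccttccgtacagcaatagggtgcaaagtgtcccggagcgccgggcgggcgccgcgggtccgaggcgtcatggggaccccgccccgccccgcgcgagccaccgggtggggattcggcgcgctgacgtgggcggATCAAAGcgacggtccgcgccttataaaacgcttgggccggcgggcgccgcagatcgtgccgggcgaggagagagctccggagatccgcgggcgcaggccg
Fzd4, chr7:89404116-89404415, plus strand: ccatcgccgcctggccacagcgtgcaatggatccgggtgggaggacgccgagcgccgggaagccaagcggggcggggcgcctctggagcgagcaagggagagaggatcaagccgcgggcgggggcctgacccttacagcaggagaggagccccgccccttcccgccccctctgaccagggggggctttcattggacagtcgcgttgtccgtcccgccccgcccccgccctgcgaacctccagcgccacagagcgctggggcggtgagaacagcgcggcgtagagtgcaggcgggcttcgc
Axin2, chr11:108920099-108920398, plus strand: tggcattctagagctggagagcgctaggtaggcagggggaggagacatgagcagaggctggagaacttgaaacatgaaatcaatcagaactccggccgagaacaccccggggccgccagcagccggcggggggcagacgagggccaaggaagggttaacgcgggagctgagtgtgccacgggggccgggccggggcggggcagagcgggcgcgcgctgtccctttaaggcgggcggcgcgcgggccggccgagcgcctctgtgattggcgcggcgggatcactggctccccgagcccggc
Lef1, chr3:131110047-131110346, plus strand: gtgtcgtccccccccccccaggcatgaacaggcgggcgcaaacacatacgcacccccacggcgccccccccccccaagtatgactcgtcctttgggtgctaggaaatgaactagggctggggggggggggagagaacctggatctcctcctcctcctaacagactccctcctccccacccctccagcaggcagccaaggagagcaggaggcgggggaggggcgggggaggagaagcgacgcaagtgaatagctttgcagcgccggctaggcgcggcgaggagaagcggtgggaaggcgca
The only match among these 5 windows was CTTTGAT on the antisense strand of the Wnt11 window, beginning 51 bases before the start site. Another of the 4 Lef1 windows, not printed, held CTTTGTA on the antisense strand. A TCF/LEF element was found in 7 of 48 windows of the 38 members with an entry (14.6%), against 16.9% of all 32851 windows. A match is a description of letters and not of binding.

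Among the ligands, the most abundant transcript of uninduced cells, Wnt10b, fell together with Wnt10a, Wnt4 and Wnt7b, while Wnt11 and Wnt9a rose. Wnt10b, a canonical ligand known to restrain adipogenesis and favour bone formation, was at 15.4, 15.6 and 16.0 CPM in the uninduced libraries and at 1.42, 1.88 and 1.72 CPM in the induced. All induced values were far below all uninduced ones, with a log2 change of -3.23 ± 0.13 (SE; adjusted p from edgeR = 4.4e-17), or 9.37-fold lower. Its close paralogue Wnt10a went from 3.23, 3.75 and 4.16 CPM to 0.171, 0.323 and 0.344 CPM, at -3.71 ± 0.29. The induced values rest on 3, 5 and 6 counts. Wnt4, which acts in kidney, gonad and muscle development, was at 5.41 to 5.63 CPM without and 2.85 to 3.16 CPM with doxycycline, a fall of 0.86 ± 0.14 on the log2 scale with no overlap. Wnt7b, a ligand of lung and kidney development, was low throughout, with 15, 20 and 17 uninduced counts and 3, 0 and 1 induced counts (-2.71 ± 0.63; adjusted p from edgeR = 0.00038). Its size rests on few reads, since it was -3.97 without induced replicate 1.

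Wnt11, which acts mostly through the beta-catenin-independent branch in cell movements and myofibre orientation, rose. It was at 0.389, 0.388 and 0.328 CPM in uninduced and 2.51, 2.59 and 3.16 CPM in induced libraries, a log2 change of 2.88 ± 0.26 (SE; adjusted p from edgeR = 3.5e-10). The induced libraries were all several-fold above the uninduced ones, which held 10 to 13 counts each. In the GENCODE M21 annotation 10.1% of its exon bases overlap a predicted gene on the opposite strand, and the strand setting of the counts is not given in the sources used here. Wnt9a, a ligand of joint and skeletal development, was at 8.16 to 8.47 CPM and then 13.0 to 13.6 CPM, a log2 rise of 0.68 ± 0.09, which turned to -0.28 with library size alone. Wnt6 overlapped between groups (1.18 to 1.65 against 0.627 to 1.49 CPM) and was not called, at -0.45 ± 0.29 (adjusted p from edgeR = 0.15), but it was called lower without induced replicate 3 (-0.86) and with library size alone (-1.41).

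Shares within a library do not depend on scaling between libraries. A share can grow because other genes of the family fall, so it does not give the direction of a gene's own level. Per kilobase of exon, Wnt10b made up 41.9% ± 0.910 of the counts of all 19 ligands in uninduced libraries and 7.33% ± 0.899 in induced ones (SD, n = 3). Wnt9a went the other way, from 22.7% ± 0.502 to 59.7% ± 3.59, and became the ligand with the highest level per kilobase, followed by Wnt11 at 0.761 ± 0.0978 and Wnt4 at 0.724 ± 0.0392 CPM per kb, which did not differ beyond their spread. The share of Wnt11 went from 0.929% ± 0.0961 to 11.3% ± 0.867 and that of Wnt10a from 13.7% ± 1.52 to 1.68% ± 0.513. The share of Wnt4 was 11.9% ± 0.236 and 10.8% ± 0.312. For Wnt10b, Wnt9a, Wnt11, Wnt10a and Wnt4 the 3 libraries of a group did not overlap with the other 3 (two-sided exact permutation p = 0.1, the smallest that 3 against 3 allows). Summed over the 19 ligands the level was 36.0 ± 0.758 CPM in uninduced and 22.5 ± 0.988 CPM in induced libraries.

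Of the 12 ligands that were not tested, Wnt3a, Wnt7a, Wnt8b and Wnt9b had no count in any library. In a single library 3 counts equal 0.0898 to 0.0983 CPM (uninduced) or 0.171 to 0.194 CPM (induced). A gene below these levels can be missed in a single library by counting error alone. Wnt2b had 10, 9 and 12 uninduced and 2, 1 and 3 induced counts, and Wnt16 had 4, 5 and 1 against 1, 1 and 0. Wnt5b had 8, 0 and 0 against 0, 4 and 0, so that its counts sat in single libraries. Wnt1, Wnt2, Wnt3, Wnt5a and Wnt8a had between 1 and 6 counts over all libraries. Several ligand genes are neighbours. Wnt6 and Wnt10a lie 6.7 kb apart on chromosome 1, and Wnt10b lies 11.7 kb from Wnt1 on chromosome 15 (GRCm38.p6, RefSeq). Wnt9a lies 16.1 kb from Wnt3a on chromosome 11. In these neighbourhoods the level differed between the genes. Wnt10a fell while Wnt6 was not called, although their changes were not tested against each other. Wnt1 (5 uninduced counts, 1 induced) and Wnt3a were nearly or wholly without counts beside Wnt10b and Wnt9a. Wnt9b and Wnt3, which overlap on chromosome 11, were both nearly or wholly without counts (Wnt3 had 1 uninduced and 2 induced).

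**Figure D2:**
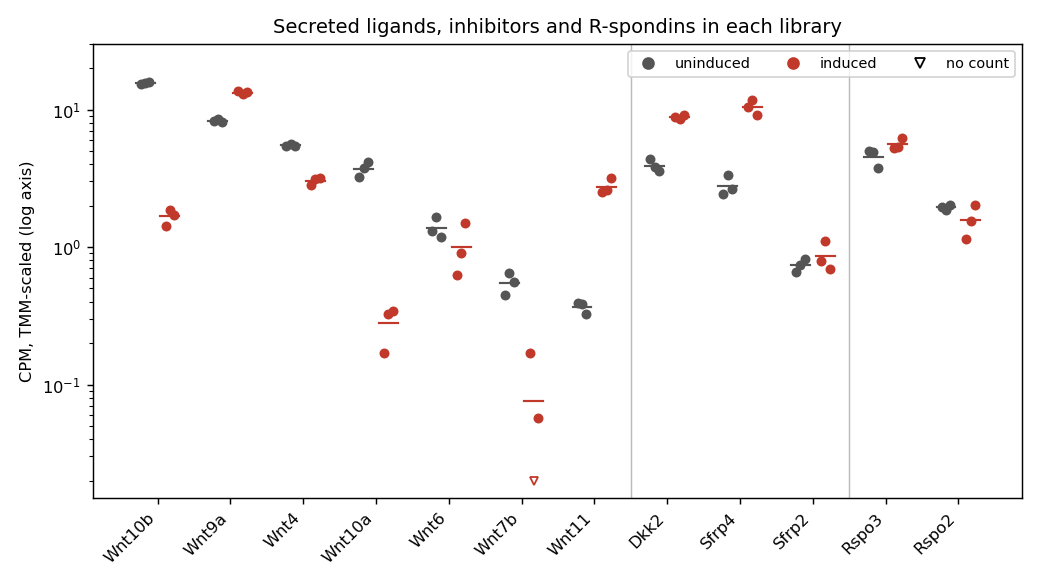
CPM on a log axis (y) of 7 tested ligands, 3 tested inhibitors and 2 tested R-spondins (x, separated by vertical lines) in each library. Points are libraries (grey uninduced, red induced), horizontal bars are group means of 3, and the open triangle marks a library with no count, drawn at the bottom. Wnt10b falls and Wnt11 rises with no overlap between groups, whereas Wnt6, Sfrp2 and Rspo2 overlap.

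Of the secreted inhibitors, 2 of 3 tested rose, against 41.3% of all tested genes, and 5 of 8 were not tested. Sfrp4, which encodes a Frizzled-related protein that binds Wnt ligands, was at 2.42, 3.33 and 2.65 CPM in uninduced and 10.5, 11.8 and 9.12 CPM in induced libraries. The groups were well apart, with a log2 change of 1.90 ± 0.14 (SE; adjusted p from edgeR = 5.2e-12). Dkk2, whose product binds LRP5 and LRP6, was at 4.34, 3.82 and 3.57 CPM and then 8.77, 8.47 and 9.06 CPM, a rise of 1.16 ± 0.12, which was 0.20 and not called with library size alone. Sfrp2 overlapped between groups at 0.658 to 0.819 and 0.688 to 1.10 CPM (0.21 ± 0.31, not called; called lower at -0.75 with library size alone). Dkk1 and Dkk4 had no count in any library, and Sfrp1, Sfrp5 and Dkk3 had 3 to 5 counts over all libraries. Of the R-spondins, Rspo3 was at 3.74 to 4.97 CPM and 5.30 to 6.25 CPM, called higher at 0.31 ± 0.14 (adjusted p from edgeR = 0.045). That call was lost with DESeq2 (adjusted p = 0.079), limma-voom, upper-quartile scaling, no count filter, an adjusted p of 0.01, and without uninduced replicate 3 (0.18), induced replicate 2 (0.34) or induced replicate 3 (0.23), and the value was -0.65 with library size alone. Predicted genes on the opposite strand cover 13.1% of the exon bases of Rspo3 and 17.3% of those of Sfrp2. Rspo2 overlapped between groups (1.88 to 2.03 against 1.14 to 2.01 CPM) and was not called, except with library size alone (-1.28). Rspo1 had 2 uninduced and 3 induced counts and Rspo4 had 1 count in all.

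Of the 9 Frizzled receptors tested, 6 rose and 2 fell, against 41.3% higher and 41.2% lower of all tested genes. Fzd4, the receptor of Norrin as well as of Wnt ligands and required for retinal vessels, was at 8.23, 7.63 and 7.08 CPM in uninduced and 66.1, 60.9 and 60.3 CPM in induced libraries. This is 8.15-fold, a log2 change of 3.03 ± 0.07 (SE; adjusted p from edgeR = 1.0e-21), and the rise was of the size of that of Axin2. Fzd5, a receptor of canonical ligands, was at 17.6, 17.0 and 15.6 CPM and then 60.3, 52.5 and 60.8 CPM (1.79 ± 0.07), with a predicted gene on the opposite strand over 17.8% of its exon bases. Fzd8 rose from 4.54 ± 0.214 to 14.0 ± 1.49 CPM (SD, n = 3; 1.63 ± 0.11 on the log2 scale). Fzd3, which acts in axon guidance and planar polarity, rose from 31.1 ± 0.660 to 63.2 ± 1.79 CPM, and Fzd9 from 0.898 to 1.13 CPM in uninduced to 2.22 to 2.87 CPM in induced libraries. With library size alone these last 2 were at 0.06 and 0.28 and not called. Fzd7, a receptor of muscle satellite cells, was at 65.4 to 70.0 CPM and 90.7 to 96.0 CPM, a rise of 0.45 ± 0.05 that turned to -0.51 with library size alone.

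Fzd6 was the receptor that fell most. It acts mainly in planar polarity, as in hair orientation, and was at 67.6, 68.0 and 68.5 CPM in uninduced and 19.3, 19.8 and 24.3 CPM in induced libraries, a log2 change of -1.69 ± 0.07 (SE; adjusted p from edgeR = 6.2e-17). The 3 uninduced libraries were close together and all above the induced ones. Fzd2 fell by 0.24 ± 0.06 on the log2 scale, from 70.7 to 77.8 CPM in uninduced libraries to 55.9 to 67.6 CPM in induced ones. Fzd1 was at 52.2 ± 2.32 and 51.6 ± 2.35 CPM (SD, n = 3) and not called (-0.02 ± 0.05), but it was called lower with upper-quartile and library-size scaling (-0.16 and -0.98). Fzd10 had no count.

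Measured per kilobase, the order of the receptors changed. In uninduced libraries Fzd2 was highest at 20.5 ± 1.04 CPM per kb, followed by Fzd6 (15.5 ± 0.0956) and Fzd7 (15.0 ± 0.527), which did not differ beyond their spread, and by Fzd1 (12.4 ± 0.553). The other receptors were at 2.44 CPM per kb or less. Although Fzd6 and Fzd7 lay close, the share of Fzd6 was larger in each uninduced library (22.0%, 21.6% and 22.4% against 21.6%, 21.5% and 20.7%). In induced libraries Fzd7 was highest at 20.5 ± 0.605 CPM per kb, then Fzd2 (17.3 ± 1.73), Fzd1 (12.3 ± 0.561), Fzd4 (9.29 ± 0.474) and Fzd5 (8.37 ± 0.676). The share of Fzd4 was above that of Fzd5 in each induced library (11.7%, 11.8% and 10.9% against 10.4%, 9.92% and 10.7%). Fzd3 (4.96 ± 0.141) and Fzd6 (4.82 ± 0.628) came next in level and did not differ beyond their spread. Within the family, the share of Fzd6 went from 22.0% ± 0.397 to 5.96% ± 0.740 and that of Fzd4 from 1.61% ± 0.120 to 11.5% ± 0.524, with no overlap between groups (exact permutation p = 0.1 each). Summed over the 10 receptors the level was 324 ± 5.13 and 429 ± 17.4 CPM.

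The co-receptors moved in opposite directions. Lrp6 was at 86.8, 76.9 and 70.5 CPM in uninduced and 206, 198 and 203 CPM in induced libraries, a log2 change of 1.37 ± 0.06 (SE; adjusted p from edgeR = 6.7e-14). Lrp5, known for its role in bone mass, was at 58.3, 54.6 and 50.8 CPM and then 32.2, 29.1 and 30.2 CPM, at -0.84 ± 0.06. Neither gene overlapped between groups. Per kilobase they were nearly level without doxycycline (9.09 ± 0.623 for Lrp5 and 8.33 ± 0.872 for Lrp6) and Lrp6 made up 81.0% ± 0.515 of the pair with it, against 47.8% ± 0.920. Znrf3, the ligase that removes Frizzled receptors from the membrane, rose from 22.2 to 25.5 CPM in uninduced to 44.7 to 52.3 CPM in induced libraries (1.07 ± 0.07), but was at 0.11 and not called with library size alone. Its paralogue Rnf43 had 1 count in all.

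**Figure D3:**
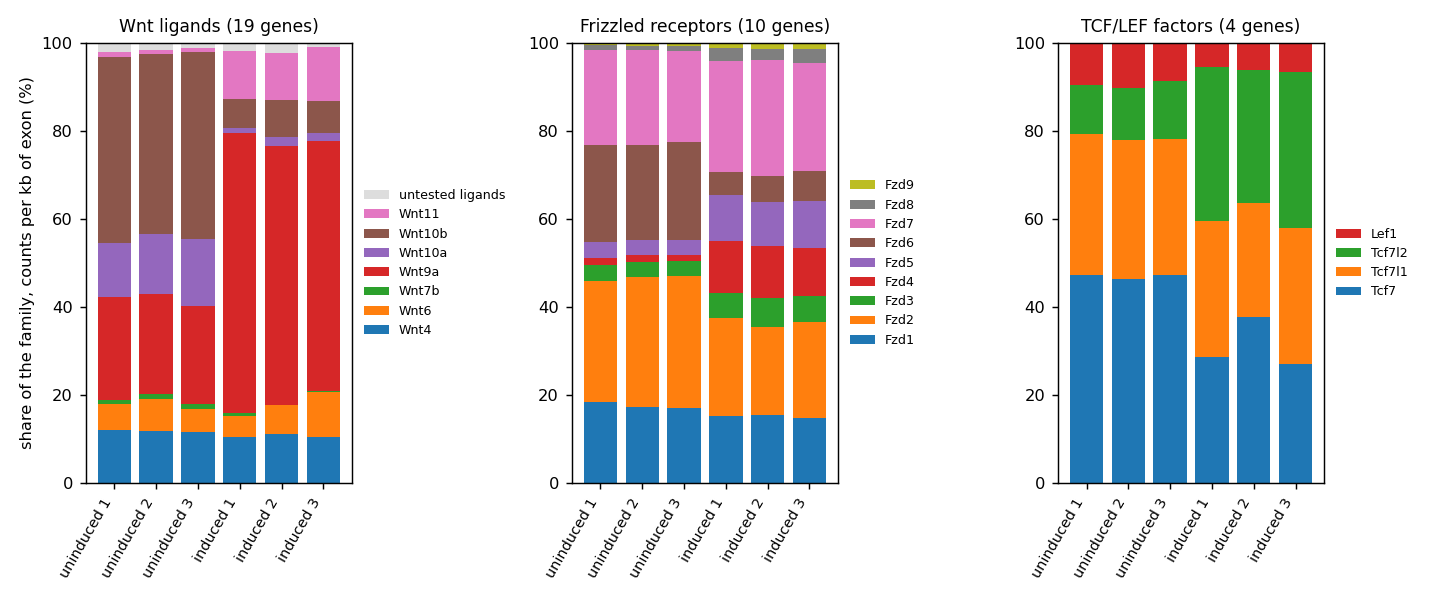
Share of each gene (y axis, % of the family's counts per kilobase of exon) in each of the 6 libraries (x axis) for the Wnt ligands, Frizzled receptors and TCF/LEF factors. Stacked bars add to 100%; Wnt10b shrinks from 41.9% to 7.33% and Wnt9a grows from 22.7% to 59.7% of ligands, Fzd6 shrinks from 22.0% to 5.96% of receptors, and Tcf7l2 grows from 12.1% to 33.4% of TCF/LEF factors (group means).

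Inside the cell, Dishevelled transcripts were divided, since Dvl3 rose (29.5 ± 2.38 to 55.2 ± 3.87 CPM, 0.90 ± 0.06), Dvl2 fell (35.2 ± 0.982 to 26.0 ± 0.661 CPM, -0.44 ± 0.06) and Dvl1 was not called (89.5 ± 3.15 and 85.0 ± 3.97 CPM, SD, n = 3). Dvl3 was at -0.06 with library size alone. The exons of Dvl2 overlap those of Acadvl, a mitochondrial fatty acid oxidation gene on the opposite strand, over 19.3% of their bases, and Acadvl was at 29.9 ± 0.585 and 34.8 ± 1.38 CPM. Dvl1 was called lower with upper-quartile scaling (-0.22), library size alone (-1.04) and no count filter (-0.15), and without uninduced replicate 3 (-0.11). The Dishevelled share of Dvl3 per kilobase went from 17.1% ± 0.782 to 29.9% ± 0.587.

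Axin2 stood out in the destruction complex. It encodes a scaffold that is itself a widely used transcriptional target of beta-catenin, and it was at 0.688, 0.744 and 0.819 CPM in uninduced and 6.78, 5.89 and 5.56 CPM in induced libraries. All induced values were above all uninduced ones, with 23 to 25 and 91 to 119 counts per library, and a log2 change of 3.01 ± 0.18 (SE; adjusted p from edgeR = 2.1e-13). Even so its induced level, 1.43 ± 0.148 CPM per kb, was below that of Axin1 at 22.3 ± 1.35. Axin1, the constitutive scaffold, rose from 43.5 ± 1.79 to 84.0 ± 5.10 CPM (0.95 ± 0.05) and was at -0.01 and not called with library size alone. Apc, the large scaffold of the complex, was at 72.6, 60.6 and 55.9 CPM and then 50.4, 49.8 and 48.6 CPM, a fall of 0.35 ± 0.08 on the log2 scale. Gsk3b, the kinase that phosphorylates beta-catenin, was at 95.6 to 106 and 107 to 110 CPM, called higher at 0.12 ± 0.05 (adjusted p from edgeR = 0.021). That call was lost without the count filter, at an adjusted p of 0.01, and without uninduced replicate 2 (0.09), uninduced replicate 3 (0.09) or induced replicate 3 (0.12), and the sign turned with upper-quartile (-0.02) and library-size scaling (-0.84). Ctnnb1, beta-catenin itself, was by far the most abundant member per kilobase, at 178 ± 3.27 and 164 ± 1.42 CPM per kb. Its libraries ranged from 636 to 658 CPM without and 591 to 601 CPM with doxycycline, without overlap, and the log2 fold change was -0.12 ± 0.04 (adjusted p from edgeR = 0.008).

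Among the TCF/LEF factors, Tcf7, Tcf7l1 and Lef1 fell and Tcf7l2 rose. Tcf7, which encodes TCF1, was at 37.5, 35.7 and 36.2 CPM in uninduced and 14.0, 19.2 and 13.1 CPM in induced libraries, a log2 change of -1.25 ± 0.10 (SE; adjusted p from edgeR = 1.0e-09). Induced replicate 2 was the highest of its group yet well below every uninduced library. Lef1 was at 10.3, 10.4 and 8.88 CPM and then 3.65, 4.20 and 4.36 CPM, at -1.28 ± 0.12. A predicted gene on the opposite strand overlaps 34.5% of its exon bases. Tcf7l1, which acts largely as a repressor, was at 28.6 ± 1.08 and 17.0 ± 1.19 CPM (-0.75 ± 0.07). Tcf7l2, the factor known for its link to metabolism and for guiding muscle connective tissue, was at 14.9, 15.4 and 17.2 CPM and then 28.7, 25.9 and 28.8 CPM (0.81 ± 0.07), but at -0.15 and not called with library size alone. Free of scaling, the share of Tcf7l2 in the family's counts per kilobase went from 12.1% ± 1.08 to 33.4% ± 2.84. That of Tcf7 went from 47.0% ± 0.459 to 31.1% ± 5.70, neither with overlap (exact permutation p = 0.1 each). A share can grow because the other factors fall, so it does not show a rise of Tcf7l2 itself. Per kilobase, Tcf7 led clearly in uninduced libraries (13.9 ± 0.362 CPM per kb), whereas in induced libraries Tcf7l2 (6.28 ± 0.364), Tcf7 (5.88 ± 1.26) and Tcf7l1 (5.50 ± 0.384) did not differ beyond their spread from the next in order. The summed level of the 4 was 90.8 ± 1.49 and 64.3 ± 0.596 CPM.

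Beyond these families, 100 other genes of the pathway were listed by role, and 79 were tested, with 34 higher and 30 lower and a median log2 fold change of 0.09. As for the members, this is near the 41.3% and 41.2% of all tested genes. For secretion of the ligands, Wls, the carrier that takes lipid-modified Wnt to the surface, rose from 325 ± 5.59 to 482 ± 13.5 CPM (SD, n = 3; -0.39 on the log2 scale with library size alone), and Porcn, the enzyme that adds the lipid, fell by 0.31 ± 0.10 on the log2 scale, a call lost without induced replicate 1. Of 10 other receptors tested, 7 fell and 2 rose. The R-spondin receptor Lgr6 fell from 11.6 ± 1.31 to 1.63 ± 0.179 CPM (SD, n = 3; -2.83 ± 0.15 on the log2 scale), whereas its relative Lgr4 rose from 78.0 ± 2.41 to 182 ± 2.98 CPM (1.22 ± 0.04). Reck rose by 1.09 (0.13 and not called with library size alone) and its partner Adgra2 fell by 1.37 on the log2 scale. The DKK receptor gene Kremen2 was low and fell by 1.34 ± 0.35 (1.01 ± 0.202 to 0.394 ± 0.0665 CPM). Its more abundant relative Kremen1 fell by 0.93 ± 0.05 on the log2 scale, from 210 ± 13.3 to 111 ± 3.03 CPM. Of 5 other secreted or surface inhibitors tested, Apcdd1 (1.78), Tpbg (1.13) and Trabd2b (0.60; -0.37 with library size alone) rose and Igfbp4 fell by 1.33 on the log2 scale.

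In the cytoplasmic relay 14 of 22 tested genes rose and 4 fell, against 41.3% and 41.2% of all tested genes. These directions depend on the scaling. With library size alone, 14 of the other pathway genes of all lists together were called higher and 57 lower. Frat2, which encodes a GSK3-binding protein, was at 1.38, 0.938 and 1.64 CPM in uninduced and 24.6, 18.5 and 24.0 CPM in induced libraries, a log2 change of 4.08 ± 0.15 (SE). Its relative Frat1 was at 0.0328 to 0.194 CPM in uninduced libraries, a few counts each, and 1.23 to 2.41 CPM in induced ones, and the Dishevelled-binding Dact3 rose by 1.94 ± 0.05. Ccdc88c and the casein kinase genes Csnk1g1 and Csnk1g2 fell by 0.86, 0.86 and 0.49 on the log2 scale. The casein kinase genes were divided, since with TMM scaling Csnk1d, Csnk1e and Csnk1g3 rose by 0.85, 0.63 and 0.50. Csnk1a1 fell by 0.17. Of 13 nuclear cofactors tested 6 rose and 4 fell. The Groucho-type co-repressor genes Tle4 and Tle1 rose, Tle4 from 6.13, 5.76 and 4.98 CPM to 69.9, 66.0 and 70.6 CPM (3.61 ± 0.07) and Tle1 from 63.9 ± 3.46 to 271 ± 18.4 CPM (2.09 ± 0.05). The short family member Aes, which lacks the repressor domain, fell by 0.59 ± 0.04 on the log2 scale. Bcl9, a beta-catenin co-activator, rose by 1.08 (0.11 and not called with library size alone), and Ctnnbip1 and Cby1, whose products bind beta-catenin and hold it back from TCF, fell by 1.24 and 0.86 on the log2 scale.

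**Figure D4:**
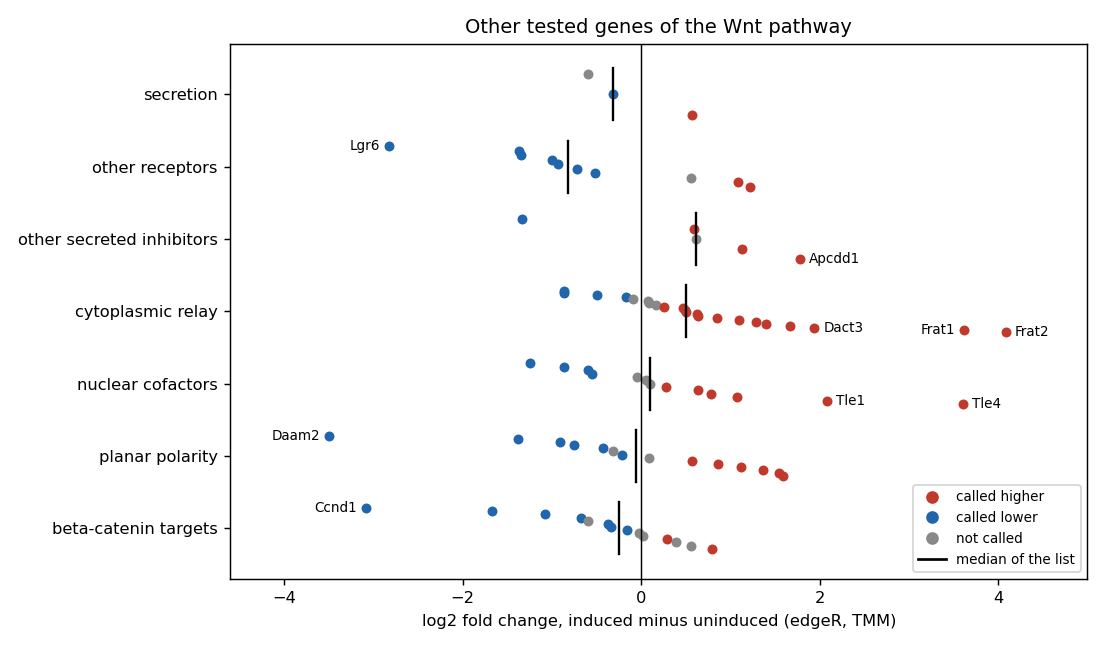
Log2 fold change (x axis, induced minus uninduced, edgeR with TMM scaling) of the 79 other tested pathway genes by list (y axis; genes held by several lists are drawn in each). Points are genes coloured by call at an adjusted p of 0.05 and black bars are list medians; every list has called genes on both sides of 0, with Frat2 (4.08), Frat1 (3.62) and Tle4 (3.61) farthest right and Daam2 (-3.49) and Ccnd1 (-3.08) farthest left.

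The planar polarity genes were evenly divided, 6 higher and 6 lower of 14 tested. Daam2, a formin-type partner of Dishevelled, fell from 17.0, 15.0 and 13.6 CPM to 1.42, 1.62 and 1.03 CPM (-3.49 ± 0.16), while its relative Daam1 rose by 1.12 ± 0.06. Vangl1 fell by 1.37 and Vangl2 rose by 1.36, and Prickle3 fell by 0.91 and Prickle1 rose by 1.59 on the log2 scale. Of the genes commonly used as readouts of beta-catenin and not among the 57, 14 of 24 were tested, with 2 higher and 7 lower and a median log2 fold change of -0.25. Of all tested genes 41.3% were higher and 41.2% lower, with a median of -0.01. Ccnd1, which encodes cyclin D1, fell from 161, 147 and 151 CPM to 17.0, 17.9 and 19.2 CPM (-3.08 ± 0.06), and the matricellular genes Wisp1 and Wisp2 fell by 1.67 ± 0.05 and 1.08 ± 0.32 on the log2 scale. Jun (0.79) and Cd44 (0.30) were called higher, and with library size alone they were at -0.17 and -0.67. The 6 readouts that are also members were divided, with Axin2 and Znrf3 higher, Lef1 and Tcf7 lower, and Rnf43 and Dkk1 not tested. Axin2 and Ccnd1, both used as targets of beta-catenin, thus moved in opposite directions under all 4 scalings.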

How the data were processed

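Polyadenylated RNA libraries (TruSeq RNA Sample Prep v2, per the labels) of 3 uninduced and 3 induced cultures were pooled for sequencing, per the labels. The authors deposited raw counts per Entrez gene, and per the submitters' processing notes reads went through CASAVA, TopHat2 2.0.12 and Bowtie2 2.2.3 on mm10 (GRCm38). Which program counted reads, with which strand setting and annotation, is not given in the sources used here. Groups were taken from the titles. In R 4.3.3 counts were filtered with filterByExpr (minimum count 10), scaled with TMM and tested with edgeR 4.0.16 (glmQLFit, robust=TRUE, glmQLFTest, two-sided). P-values were adjusted by Benjamini-Hochberg across the 12969 genes that passed the filter, and calls were made at 0.05. SEs were derived from the F statistic. The test was checked on simulated counts with few changed genes and equal folds up and down. That check does not cover the scaling, because most genes were called in these data. CPM used TMM-scaled library sizes, and per-kilobase values used merged exons of GENCODE M21 (basic). The p-values set the difference between groups against the spread within groups of these 6 cultures of 1 line. Replicate pairs differed beyond counting noise (chi-square 2.48 to 7.09 times its degrees of freedom). Alternatives were RLE, upper-quartile and library-size scaling, no filter, a minimum count of 50, DESeq2 1.42.0, limma-voom (limma 3.58.1), a fit with robust=FALSE, the replicate number as a block, leaving out each library, and an adjusted p of 0.01.

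Members and gene lists were chosen with earlier results of these data known. Every tested member is named; of each other list up to 3 higher and 3 lower genes are named, by size of change, among called genes that did not overlap between groups and reached a mean of 1 CPM in either group. Outside this rule, Csnk1d, Csnk1e, Csnk1g3, Csnk1a1 and Kremen1 are named beside their relatives. All 57 members matched RefSeq gene identifiers. Sequences are RefSeq's (GRCm38.p6).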

Additional observations from a re-analysis of the deposited data

How the results depend on the processing

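The 18 higher and 13 lower calls stayed between 16 and 18 and between 12 and 15 under every alternative but library size as the only scaling. With that scaling 7 members were higher and 22 lower (median -0.7955), 14 and 57 of the other pathway genes, and 1977 and 9949 of all tested genes. It turned the sign of Wnt9a (-0.28), Sfrp2 (-0.75), Rspo3 (-0.65), Fzd7 (-0.51), Dvl3 (-0.0603), Axin1 (-0.0135), Gsk3b (-0.84), Tcf7l2 (-0.15), Wls (-0.39), Trabd2b (-0.37), Jun (-0.17) and Cd44 (-0.67), by its own construction, since it lowers every value by about the shift in the median of all genes. The members' median was 0.0205 with upper-quartile scaling, -0.0194 without a count filter, which adds sparsely counted members, and 0.0132 (without induced replicate 2) to 0.1949 with 1 library left out. Gsk3b was at -0.0223 with upper-quartile scaling. Fzd1, not called, was at 0.0013 with RLE scaling and with DESeq2, 0.0046 with a minimum count of 50, and -0.0537 to 0.0132 with 1 library left out (0.013 without uninduced replicate 1, 0.0132 without induced replicate 2).

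Replicate numbers are shared between the groups in the titles only. Deviations of same-numbered libraries correlated at 0.0787, 0.0074 and 0.0615, so the numbers were not taken as pairs, although every library correlated best with its own number. With a replicate block 18 members were higher and 13 lower, as without it, and 5411 and 5402 of all genes. Depth limits the 21 untested members, none of which had more than 37 counts over the 6 libraries. Shares computed on counts in place of counts per kilobase were added after seeing the data and reversed no direction in the Frizzled and TCF/LEF families.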
